A study of Mus musculus with 30 samples.

Results

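Satellite cells taken from regenerating muscle 60 hr after injury were compared with satellite cells of uninjured muscle, both sorted on the surface protein VCAM from young mice. The comparison was chosen by the sample titles and holds 6 of the 30 arrays of the series, 3 of quiescent satellite cells (QSCs) and 3 of activated satellite cells (ASCs). All mice of these 2 groups were wildtype C57BL6 animals of 2-3 months. QSCs came from uninjured hindlimb muscle, and ASCs from hindlimb muscle injured by injection of barium chloride 60 hr earlier, a toxin that destroys myofibers and starts regeneration. Both were sorted as VCAM+/CD31-/CD45-/Sca1- cells, a gate that leaves out endothelial cells (CD31), leukocytes (CD45) and most fibro-adipogenic and vascular cells (Sca1). Each group thus stands for whatever the gate let through, and not for 1 clone or 1 cell. The other arrays used below were of VCAM-sorted young ASCs at 36 hr and 84 hr after the same injury, of QSCs and 60-hr ASCs sorted for YFP from young Pax7CreER/+;ROSA26eYFP/+ mice, in which Cre from the Pax7 locus marks satellite cells and their progeny, and of VCAM-sorted QSCs and 60-hr ASCs of wildtype mice of 22-24 months, called old here. The paper describes the Pax7CreER/+;ROSA26eYFP/+ mice as tamoxifen-treated in its test of the sort. Every group had 3 arrays. Whether arrays of 1 group were made from different animals is not stated, so the p-values measure only the spread between these arrays.

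Satellite cells are the stem cells of skeletal muscle. In resting muscle they lie between the myofiber and its basement membrane, out of the cell cycle and marked by the transcription factor Pax7, and Notch and calcitonin receptor signalling are known to hold them there. After injury they leave quiescence, divide as myoblasts under Myf5 and MyoD for some days, and then exit the cell cycle under myogenin to fuse into new fibers. A dividing cell must copy its DNA from licensed origins, condense and separate its chromosomes with kinetochores, kinesins and condensins, and double its ribosomes, mitochondria and proteins.

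RNA was read on Mouse Gene 1.0 ST arrays, and values are RMA values, the log2 intensity of a probe set after background correction and quantile normalization. A difference of 1 is therefore 1 doubling. Of 35556 probe sets, 21789 named 1 gene, and the brightest probe set of each stood for the 19939 genes tested. Changes were read within a gene, since probe sets differ in brightness. Words such as bright or low, and list levels set beside array medians, are rough marks of signal only. A gene was called where the adjusted p of the limma fit was below 0.05 and the fold was at least 1.5. The 6 arrays had medians of 7.26 to 7.39. Arrays correlated with others of their group at 0.9962 to 0.9977 over all genes and with arrays of the other group at 0.909 to 0.915, and the median SE of a log2 change was 0.08. In ASCs 3312 genes (16.6% of those tested) rose and 2519 (12.6%) fell against QSCs. At 4-fold or more 392 rose and 394 fell, and at 16-fold or more 31 and 28. The median log2 change of all genes was -0.04. The values of the 3 QSC arrays and the 3 ASC arrays did not overlap for 12372 genes (62%), so lack of overlap alone marks the majority of genes here.

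The sort was checked against lists of cell type markers. Vcam1, the protein sorted on, was bright in both groups. Vcam1 read 12.87, 12.83 and 12.86 in the QSC arrays and 12.28, 12.26 and 12.35 in the ASC arrays. The ASC arrays were lower by 0.56 without passing the fold, and the groups did not overlap. Monocyte and macrophage markers were higher in ASCs although the gate excludes CD45: 21 of 25 rose and none fell, with a median log2 change of 1.25, and their mean level was 6.34 to 6.38 in the QSC arrays and 7.79 to 7.91 in the ASC arrays. Lyz2, lysozyme of macrophages, read 6.85, 7.37 and 7.04 in the QSC arrays and 10.002, 9.94 and 10.06 in the ASC arrays. Ctss, the protease cathepsin S, read 6.30, 6.03 and 6.15 in the QSC arrays and 9.60, 9.58 and 9.62 in the ASC arrays. Both genes were low in every QSC array and high in every ASC array. The transcript of CD45 itself, Ptprc, rose by 1.25 from a QSC mean of 6.24. Endothelial markers went the other way, CD31 included, whose gene Pecam1 fell by 2.23. Of 14 such markers 13 fell, with a median of -1.85, and their mean level dropped from 8.85 to 8.88 in QSCs to 6.99 to 7.03 in ASCs. Tek, the angiopoietin receptor of endothelium, read 10.84, 10.91 and 10.91 in the QSC arrays and 7.09, 7.21 and 7.17 in the ASC arrays, and fell by 3.73 ± 0.05 (SE, adjusted p = 1.66e-27). Of 13 pericyte and smooth muscle markers 11 fell, with a median of -1.91 and mean levels of 9.96 to 10.04 in QSCs and 7.99 to 8.02 in ASCs. Rgs5, a pericyte marker, read 11.89, 11.94 and 11.94 in the QSC arrays and 7.53, 7.63 and 7.81 in the ASC arrays. None of the QSC values of these genes overlapped the ASC values. No lymphocyte or erythroid marker was called, of 11 and 3 measured. Neutrophil markers were near the low end of the scale in both groups, with list means of 5.99 to 6.10 and 5.77 to 5.84 (2 of 12 fell). Of 12 fibroblast markers 2 rose and 4 fell, and of 16 adult myofiber markers 4 rose and 2 fell. These samples are bulk RNA, in which fewer cells of a type and less RNA per cell cannot be told apart.

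The genes with the largest rises were genes of mitosis. Bub1, the kinase of the spindle checkpoint, read 5.42, 5.43 and 5.53 in the QSC arrays and 10.95, 10.95 and 10.98 in the ASC arrays, and rose by 5.50 ± 0.07 (SE, adjusted p = 6.92e-28), which is 45-fold. Shcbp1, a protein of the central spindle, read 5.61, 5.81 and 5.56 in the QSC arrays and 10.48, 10.53 and 10.46 in the ASC arrays. Anln, anillin, which scaffolds the contractile ring, read 6.72, 7.005 and 6.81 in the QSC arrays and 11.51, 11.55 and 11.62 in the ASC arrays. For all 3 the QSC arrays were near the dim end of that probe set's range and the ASC arrays lay far above them, with no overlap. The other rises among the top 10 were Hmmr by 4.66, Ncapg by 4.58, Nuf2 by 4.50, H1f5 by 4.48, Ect2 by 4.45, Trip13 by 4.45 and Eno3 by 4.43. Hmmr binds spindle microtubules, Ncapg is a condensin subunit, Nuf2 sits in the outer kinetochore, H1f5 is a linker histone, Ect2 acts in cytokinesis and Trip13 takes apart the checkpoint complex. Eno3 stands apart as the enolase isoform of muscle. Eno3 read 7.97, 8.05 and 8.07 in the QSC arrays and 12.42, 12.48 and 12.49 in the ASC arrays.

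The 10 largest falls had no such common role. Chrdl2, a secreted chordin-like protein that binds BMPs, read 12.22, 12.26 and 12.23 in the QSC arrays and 6.78, 6.59 and 6.67 in the ASC arrays, and fell by 5.56 ± 0.07 (SE, adjusted p = 6.92e-28), which is 47-fold. Chodl, the membrane lectin chondrolectin, read 13.04, 13.04 and 12.99 in the QSC arrays and 7.49, 7.67 and 7.77 in the ASC arrays. Calcr, the calcitonin receptor, read 11.998, 12.01 and 12.07 in the QSC arrays and 6.65, 7.02 and 7.01 in the ASC arrays. These genes were high in each QSC array and low in each ASC array. Among the others were the paired lipid transporters Abca8a, lower by 5.06, and Abca8b, lower by 4.70, the matrix protein Hmcn2, by 4.85, and the receptor phosphatase Ptprz1, by 4.71. The remaining 3 lie in 1 imprinted cluster of chromosome 12. Rian, a noncoding RNA expressed from the maternal copy, read 11.31, 11.29 and 11.31 in the QSC arrays and 5.996, 6.50 and 6.24 in the ASC arrays, Meg3, its neighbour, read 12.85, 12.82 and 12.83 in the QSC arrays and 7.95, 7.91 and 7.93 in the ASC arrays, and the precursor of the microRNA Mir380 fell by 4.70 ± 0.13 (SE, adjusted p = 2.38e-21).

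**Figure D1:**
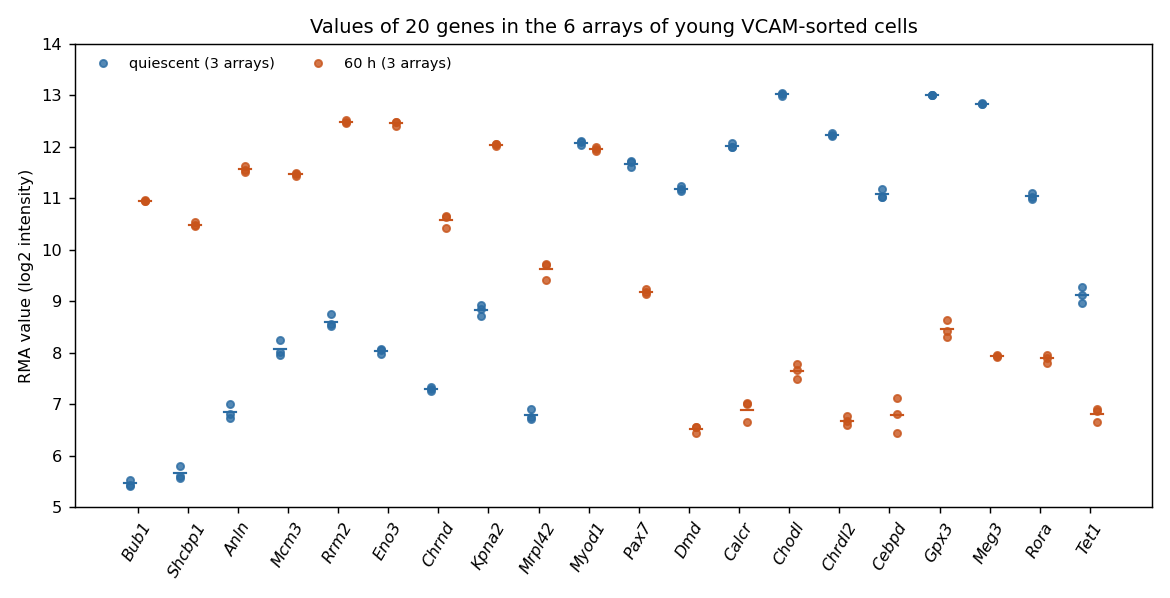
RMA values (log2 intensity, vertical axis) of 20 genes in the 3 QSC arrays (blue) and the 3 ASC arrays of 60 hr (orange), with a bar at each mean. Heights can be compared within a gene only. Replicates lie close together beside the distance between groups for every gene but Myod1, whose log2 change was -0.12.

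Genes that license and fire replication origins rose almost as a whole. Of 27 measured 26 rose and none fell (96.3%, against 16.6% of all genes), with a median log2 change of 2.42. Mcm3, a subunit of the replicative helicase, read 7.96, 8.01 and 8.24 in the QSC arrays and 11.44, 11.48 and 11.49 in the ASC arrays, and rose by 3.40 ± 0.08 (SE, adjusted p = 2.62e-22). Cdc6, which loads that helicase on origins, read 7.16, 7.07 and 7.27 in the QSC arrays and 10.58, 10.54 and 10.62 in the ASC arrays. The ASC arrays were the high ones in both cases and no array of QSCs came near them. Ticrr, which helps fire origins, rose by 3.46, Gins1 of the helicase by 3.32 and the origin recognition subunit Orc4 by 0.696, which missed the fold at 0.51 after quantile normalization. Recql4 was not called at 0.43. At the replication fork 27 of 31 genes rose and none fell. Top2a, which untangles copied DNA, rose by 4.38, the primase Prim1 by 3.67, the leading strand polymerase Pole by 3.51 and Chaf1b, which loads histones on new DNA, by 3.46. The small polymerase subunits Pold4 (-0.02) and Pole4 (0.36) were not called. Of 26 enzymes of nucleotide synthesis 24 rose, among them both subunits of ribonucleotide reductase, which makes deoxynucleotides. Rrm2, its regulated subunit, read 8.75, 8.55 and 8.51 in the QSC arrays and 12.52, 12.47 and 12.49 in the ASC arrays. Rrm1 rose by 3.26, thymidylate synthase Tyms by 2.90 and thymidine kinase Tk1 by 2.36. Of 11 enzymes of serine, glycine and one-carbon metabolism, which feed that synthesis, 9 rose and 1 fell, with Shmt2 at 2.80 and Phgdh at 2.79. Of 47 genes of DNA repair and the replication checkpoint 37 rose and none fell, led by Brca1 at 3.49 and the checkpoint kinase Chek1 at 3.33.

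The promoters of these genes are shown because the members moved together and E2F factors are known to bind such promoters. Sequences are from RefSeq on GRCm38.p6, and promoter windows of 250 bases before to 50 after a start were found for 15563 of the genes tested (19116 windows, since a gene may have several, which can overlap). The words TTTCCCGC, TTTCGCGC, TTTGCCGC and TTTGGCGC, forms of the E2F site, were searched on both strands. They were in 2.99% of all windows, in 5.93% of the 3291 windows of all genes that rose, in 11.4% of the 378 windows of genes that rose 4-fold or more and in 1.4% of the 358 windows of genes that fell 4-fold or more. Among origin genes 10 of 26 windows held one, and among fork genes 8 of 32. A match is a description of letters and not a bound site. The 160 bases before the start of 3 origin genes follow, with E2F words, on either strand, in capitals. They were chosen among called origin and fork genes that hold such a word in these bases, and genes without it were passed over. In Mcm6 and Mcm5 matches on both strands overlap and run together.
Cdc6 (chr11:98907991-98908150, plus strand): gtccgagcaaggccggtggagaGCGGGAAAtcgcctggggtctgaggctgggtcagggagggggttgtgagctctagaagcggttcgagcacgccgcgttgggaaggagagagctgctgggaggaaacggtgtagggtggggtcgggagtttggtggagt
Mcm6 (chr1:128359706-128359865, minus strand): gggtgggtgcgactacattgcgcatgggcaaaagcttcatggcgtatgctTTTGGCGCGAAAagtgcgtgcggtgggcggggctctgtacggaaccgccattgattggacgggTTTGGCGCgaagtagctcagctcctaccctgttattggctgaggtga
Mcm5 (chr8:75109349-75109508, plus strand): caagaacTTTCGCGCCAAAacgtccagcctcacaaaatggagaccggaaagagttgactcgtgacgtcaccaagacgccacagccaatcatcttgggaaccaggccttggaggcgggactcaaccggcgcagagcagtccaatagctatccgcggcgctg
Mcm6 rose by 3.26 and Mcm5 by 3.04, beside the 3.42 of Cdc6.

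Genes of chromosome segregation rose too. In the list of kinesins, spindle and cytokinesis genes 34 of 35 rose (97.1%), with a median of 3.73, the highest median of the 94 lists. Numa1, which anchors spindle poles, was the 1 member not called. Numa1 read 10.28, 10.30 and 10.41 in the QSC arrays and 9.79, 9.996 and 10.04 in the ASC arrays, with the ASC arrays a little lower. Ect2 read 6.94, 7.35 and 7.38 in the QSC arrays and 11.67, 11.62 and 11.73 in the ASC arrays, and even Ckap5, a microtubule polymerase with the smallest rise of the list, rose by 1.42. Of 29 centromere and kinetochore genes 26 rose, with Cenph at 4.24, Knl1 at 4.13 and Cenpe, a kinesin at the kinetochore, at 3.96. Cenpb (0.18), which binds centromeric repeats, was among the 3 not called. Of 30 genes of the spindle checkpoint, the chromosomal passenger complex and anaphase 25 rose and 1 fell. Plk1, the polo kinase, read 6.74, 6.48 and 6.74 in the QSC arrays and 10.83, 10.87 and 10.96 in the ASC arrays. Fbxo5, an inhibitor of the anaphase-promoting complex, rose by 3.72, while subunits of that complex such as Anapc2 (0.24) and Anapc10 (0.05) were not called. The 1 fall was securin, Pttg1. Pttg1 read 8.99, 8.95 and 9.004 in the QSC arrays and 8.26, 8.29 and 8.28 in the ASC arrays, so that ASCs were lower by 0.702. Condensin and cohesin divided: 12 of 21 rose, with the condensins Ncapg at 4.58 and Smc2 at 3.57, whereas the cohesin core Smc1a (0.06) and its release factor Wapl (0.11) were not called.

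The CHR element, read here as TTTGAA or TTCGAA on either strand, is the word through which the DREAM and MuvB complexes are known to act on mitotic promoters, often beside CCAAT boxes. It was in 16.5% of all windows and 16.7% of those of all genes that rose, so that genes that rose did not hold it more often as a whole. It was in 31.2% of those of genes that rose 4-fold or more and 15.6% of those that fell as far. It was in 25 of 33 windows of the kinesin and cytokinesis list (75.8%), in 14 of 31 of the checkpoint list and in 12 of 29 of the kinetochore list. CCAAT was in 37.4% of all windows and in 69.0% of those of the kinetochore list. Such short words are frequent by their length, so the share in all windows is the measure to read them against. Below are 160 bases before the start of 3 genes of the list with the highest share, with CHR words and, in Ect2, CCAAT words in capitals. They were chosen among called genes that hold a CHR word in these bases.
Ect2 (chr3:27153855-27154014, minus strand): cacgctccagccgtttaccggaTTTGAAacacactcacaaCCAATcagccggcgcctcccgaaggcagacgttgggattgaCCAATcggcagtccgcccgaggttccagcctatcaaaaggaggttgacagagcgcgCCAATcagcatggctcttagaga
Kif15 (chr9:122950921-122951080, plus strand): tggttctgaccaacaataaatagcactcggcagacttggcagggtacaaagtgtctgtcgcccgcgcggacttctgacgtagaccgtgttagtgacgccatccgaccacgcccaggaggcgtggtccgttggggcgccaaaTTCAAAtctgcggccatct
Kif2c (chr4:117178773-117178932, minus strand): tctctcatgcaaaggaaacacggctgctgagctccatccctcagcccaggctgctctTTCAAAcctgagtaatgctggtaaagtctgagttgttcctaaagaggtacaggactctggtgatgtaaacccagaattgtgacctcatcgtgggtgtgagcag
The kinesins Kif15 and Kif2c rose by 4.34 and 4.31.

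**Figure D2:**
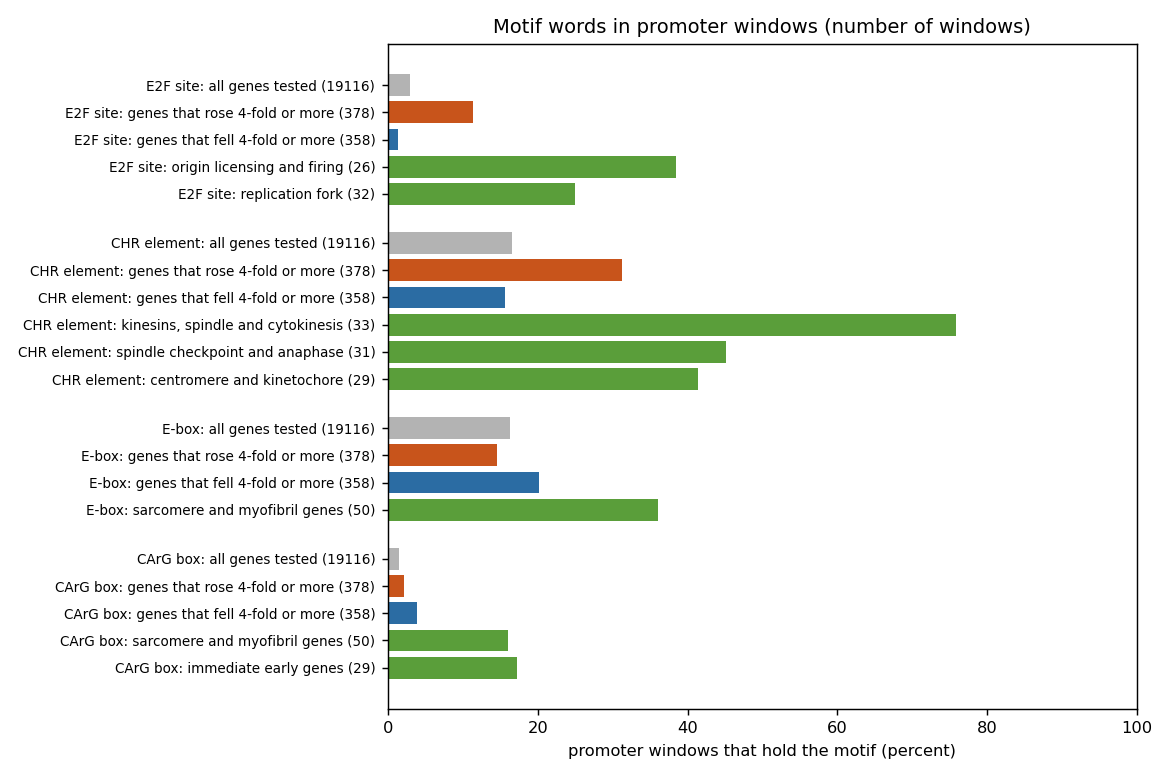
Percent of promoter windows (300 bases, horizontal axis) that hold an E2F site, a CHR element, an E-box or a CArG box, for all genes tested (grey), genes that rose (orange) or fell (blue) 4-fold or more, and gene lists (green), with the number of windows in brackets. The CHR element was in 75.8% of windows of the kinesin list and in 16.5% of all windows, and the E2F site in 38.5% of windows of origin genes and in 2.99% of all.

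Regulators of the cycle moved in both directions. Of 19 cyclins and cyclin-dependent kinases 16 rose and 1 fell, and Ccnb1 had no match among the genes tested. Ccna2, the cyclin of S phase, read 7.45, 7.61 and 7.49 in the QSC arrays and 11.67, 11.77 and 11.79 in the ASC arrays, and Cdk1 rose by 4.16, Ccne2 by 3.72 and the phosphatase Cdc25c by 3.33. The D cyclins, which answer to growth factors, stood closer to their QSC values. Ccnd1 read 11.63, 11.58 and 11.61 in the QSC arrays and 12.14, 12.20 and 12.20 in the ASC arrays, a difference of 0.57 that missed the fold, Ccnd2 stood at -0.36, and Ccnd3 was the 1 fall, by 0.60. Both calls turned on the scaling: with arrays centred on their medians Ccnd1 passed at 0.67 and Ccnd3 did not at -0.50, and without 1 ASC array Ccnd1 (replicate 1, 0.60) passed or Ccnd3 (replicate 2, -0.58) did not. In the list of E2F, pocket protein and DREAM factors 12 of 22 rose and 3 fell. E2f8, a repressor of the family, rose by 4.33, the pocket protein Rbl1 by 2.97, Mybl2 by 2.97 and Foxm1 by 2.38, while Rbl2, the pocket protein of resting cells, fell by 0.83, and Myc and Mycn by 1.001 and 1.16. Of 6 inhibitors of cyclin-dependent kinases only Cdkn1b fell, by 0.99, and only Cdkn2a rose, by 0.89. Cdkn1a had no match among the genes tested, so its change is not known here. Cdkn1c, the inhibitor p57, read 9.92, 9.89 and 9.81 in the QSC arrays and 10.11, 10.22 and 10.13 in the ASC arrays, which was not called. Of 23 p53 target genes 5 rose and 10 fell, and Cdkn1a and Bax had no match. Btg2, which restrains division, fell by 3.87 ± 0.06 (SE, adjusted p = 1.80e-26), the death receptor Fas by 3.46 and Trp53inp1 by 1.76, and Ccng1 rose by 1.79. The log2 change of Trp53inp1 was -0.22 in YFP cells and -0.33 in old cells, neither of them called.

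Chromatin genes of the replicating cell rose, and those that keep or erase marks divided. Of 26 replication-dependent histones 18 rose and 2 fell. H1f5 read 8.25, 8.33 and 8.31 in the QSC arrays and 12.71, 12.81 and 12.82 in the ASC arrays. Histone genes are near-identical copies, so that probe sets may read several of them, and single members are uncertain. Of 19 histone variants and chaperones 13 rose and 1 fell, with the chaperone Asf1b at 3.69 and the variant H2az1 at 2.08. In chromatin architecture and the lamina 16 of 19 rose, with the remodeler Hells at 4.33, Hmga2 at 2.28 and lamin B1, Lmnb1, at 2.37. Of 12 genes of DNA methylation and demethylation 4 rose and 2 fell. Dnmt1, the maintenance methyltransferase, read 8.20, 8.30 and 8.44 in the QSC arrays and 10.86, 10.83 and 10.93 in the ASC arrays, and its partner Uhrf1 rose by 3.66. Tet1, an oxidase that starts demethylation, read 8.96, 9.28 and 9.12 in the QSC arrays and 6.66, 6.91 and 6.86 in the ASC arrays, and Tet2 fell by 1.53. Tet3 (0.16) and the de novo methyltransferases Dnmt3a (-0.08) and Dnmt3b (0.13) were not called. Of 13 enzymes of H3K27 methylation 6 rose and 4 fell. Ezh2, the methyltransferase of dividing cells, read 9.80, 9.90 and 9.79 in the QSC arrays and 11.35, 11.42 and 11.42 in the ASC arrays. Ezh1, its counterpart in resting cells, read 9.93, 9.85 and 9.96 in the QSC arrays and 8.24, 8.14 and 8.18 in the ASC arrays. Ezh2 was thus higher in all ASC arrays and Ezh1 lower in all, by 1.57 ± 0.04 (SE, adjusted p = 3.93e-22) and 1.73 ± 0.04 (SE, adjusted p = 7.29e-22). Suz12 and Eed, partners of both, rose by 0.79 and 0.75 (Eed missed the fold at 0.56 after quantile normalization), and the demethylase Kdm6b fell by 1.73. Of 32 other histone lysine methyltransferases and demethylases 5 rose and 10 fell. Of 37 Hox genes 8 fell and none rose, with Hoxc8 lower by 1.21 and Hoxa9 at 0.298, not called. The study lists transcription factors with bivalent chromatin in QSCs. Of 105 homeodomain factors 1 rose and 4 fell (0.952% and 3.81%, against 16.6% and 12.6% of all genes), and of 102 other factors 8 rose and 16 fell (7.84% and 15.7%). Median levels in QSCs and ASCs were 6.68 and 6.51 for the homeodomain factors and 6.98 and 6.88 for the others. These lie below the array medians of 7.26 to 7.39, so few calls are not read as stable expression. These lists were drawn from cells sorted in the same way and are not independent of the study.

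Among genes of protein synthesis the machinery that builds ribosomes rose and the ribosomal proteins, with few exceptions, were not called. Of 39 ribosome biogenesis genes 33 rose and none fell (84.6%), with a median of 1.19. Wdr12, which matures the large subunit, read 8.54, 8.55 and 8.65 in the QSC arrays and 10.79, 10.84 and 10.92 in the ASC arrays. Dkc1, the pseudouridine synthase dyskerin, read 9.71, 9.81 and 9.72 in the QSC arrays and 11.67, 11.68 and 11.80 in the ASC arrays. Of 61 cytosolic ribosomal proteins 2 rose and 1 fell (3.28% and 1.64%), with a median of 0.02. Rps27l, a paralogue and p53 target, rose by 1.78, Rpl27 rose by 0.67 and Rpl26 fell by 0.67. Rpl27 missed the fold at 0.51 after quantile normalization and Rpl26 at -0.58 after median centring. Ribosomal protein genes have many processed copies in the genome, and their probe sets may read those too. The ribosome of mitochondria was different: 62 of 76 of its proteins rose, with a median of 1.12. Mrpl42 read 6.76, 6.91 and 6.71 in the QSC arrays and 9.42, 9.73 and 9.71 in the ASC arrays, and Mrpl18 rose by 2.41. Of 18 cytosolic aminoacyl-tRNA synthetases 14 rose, with Vars at 2.13, and of 48 initiation factors 25 rose and 4 fell. Folding and degradation rose as well. Of 17 chaperonin, prefoldin and mitochondrial chaperone genes 13 rose, led by Cct6a at 1.59, and of 39 proteasome genes 31 rose with a median of 1.24. Psmd10, an assembly chaperone of the proteasome also known as gankyrin, read 8.03, 8.17 and 8.14 in the QSC arrays and 10.41, 10.44 and 10.59 in the ASC arrays. The immune subunit Psmb8 (-0.54) was not called, though it passed at -0.65 without ASC replicate 1. In 32 genes of the nuclear pore and transport 26 rose, with the importin Kpna2 at 3.22 beside its relative Kpna4 at -0.03, not called. Of 54 splicing factors 29 rose and 1 fell. Autophagy genes were the exception, with 3 of 31 higher and 12 lower. Gabarapl1, a protein of the autophagosome membrane, read 11.10, 11.18 and 11.23 in the QSC arrays and 8.76, 9.001 and 9.03 in the ASC arrays. Ulk1, the kinase that starts autophagy, fell by 1.46 and Map1lc3a by 1.71.

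Most lists of respiratory complexes, ATP synthase and the citric acid cycle had larger shares of rises than glycolysis. Complex IV did not, at 37.5% against 44.0%. Of 35 subunits of respiratory complex I 24 rose, as did 4 of 4 of complex II, 9 of 10 of complex III with cytochrome c, and 10 of 15 of ATP synthase, with none lower. Complex IV had 6 of 16 higher and 1 lower. Ndufa9 rose by 1.94, Sdhd by 2.003, Uqcrc1 by 2.01 and Atp5o by 1.58. Of 23 enzymes of pyruvate entry and the citric acid cycle 18 rose. Idh3a, the isocitrate dehydrogenase of the cycle, read 10.10, 10.16 and 10.22 in the QSC arrays and 12.33, 12.40 and 12.36 in the ASC arrays. Got1, the cytosolic aspartate aminotransferase, read 8.53, 8.60 and 8.58 in the QSC arrays and 11.10, 11.08 and 11.19 in the ASC arrays. Both were higher in each ASC array. Pdk2 and Pdk4, kinases that shut pyruvate dehydrogenase, fell by 1.74 and 0.99, and Pdk3 rose by 1.41. In glycolysis 11 of 25 rose and 4 fell, and Gapdh, Eno1 and Pfkfb1 had no match among the genes tested. The rises were in its lower steps among others, with Pgam1 at 2.33, Pgk1 at 2.21 and Tpi1 at 2.04, and the falls included the regulators Pfkfb3, by 1.19, and Pfkfb2, by 0.84. Fatty acid handling was mixed, with 8 of 24 genes of uptake and oxidation higher and 5 lower. Fabp4 fell by 2.76 and the fatty acid receptor Cd36 by 1.94, both of which endothelium also expresses, and the endothelial markers fell in the same arrays, whose part was not tested. The log2 change of Cd36 was -0.09 in YFP cells and 0.29 in old cells, neither of them called. Cholesterol synthesis showed 2 rises and 1 fall among 20 genes. Among 29 antioxidant genes 11 rose and 5 fell. Gpx3, the secreted glutathione peroxidase, read 13.00, 13.01 and 13.01 in the QSC arrays and 8.30, 8.43 and 8.64 in the ASC arrays, and fell by 4.55 ± 0.07 (SE, adjusted p = 4.62e-26), while glutathione reductase Gsr rose by 2.48.

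**Figure D3:**
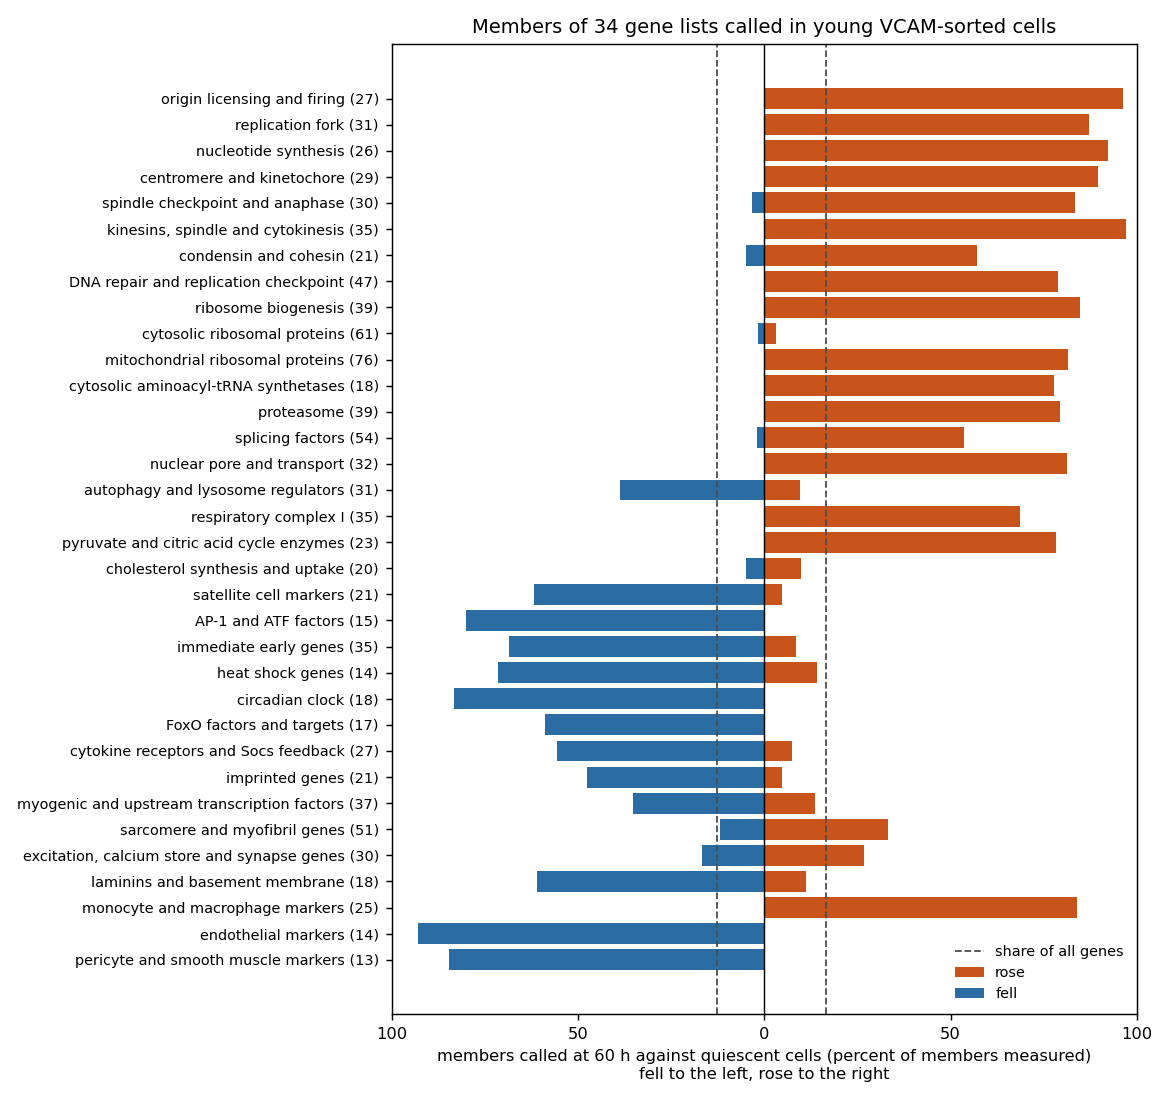
Percent of the members of 34 gene lists that rose (orange, right) or fell (blue, left) in 60-hr ASCs against QSCs, with the number of members in brackets and dashed lines at the shares of all genes, 16.6% and 12.6%. Lists of replication, mitosis and biosynthesis lie on the right with next to no falls, and those of immediate early genes, the circadian clock and vascular markers on the left, while cytosolic ribosomal proteins stay inside both lines.

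Most markers of the quiescent satellite cell fell. Of 21 listed 13 fell and 1 rose, with a median of -1.10. Pax7 read 11.60, 11.70 and 11.73 in the QSC arrays and 9.18, 9.24 and 9.15 in the ASC arrays, and fell by 2.49 ± 0.06 (SE, adjusted p = 8.10e-22). Myf5 read 11.96, 11.97 and 12.03 in the QSC arrays and 9.91, 9.94 and 10.06 in the ASC arrays. Spry1, the FGF feedback inhibitor of resting satellite cells, read 11.74, 11.78 and 11.78 in the QSC arrays and 8.44, 8.42 and 8.61 in the ASC arrays. In each case the ASC arrays were the low ones. Cd34 fell by 1.75, Fgfr4 by 2.20, Sdc4 by 1.10 and Megf10 by 2.32. The 1 rise was Met, the receptor of hepatocyte growth factor, by 1.47. Itgb1 (-0.12), Cav1 (-0.26) and Des (-0.38) were not called. The calcitonin receptor's relatives Calcrl and Ramp2, which together form the adrenomedullin receptor, fell by 2.43 and 1.92, and endothelium expresses both.

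Notch genes fell at the receptor and at the target. Of 11 ligands and receptors 6 fell and 1 rose. Notch3 read 11.69, 11.72 and 11.77 in the QSC arrays and 8.84, 9.04 and 9.05 in the ASC arrays, and Notch1 and Notch2 fell by 1.10 and 0.92. Jag1 fell by 1.73, Jag2 rose by 0.66, and Dll1 stood at 0.12, not called. Of 20 genes that process or modify the pathway 6 fell and 1 rose, with the ubiquitin ligase Dtx4 lower by 2.31 and Numb, an inhibitor of Notch, lower by 1.399. Of 14 effectors and nuclear partners 6 fell and 1 rose. Heyl read 10.69, 10.89 and 10.88 in the QSC arrays and 7.71, 7.70 and 7.82 in the ASC arrays. Hes1 read 11.27, 11.30 and 11.32 in the QSC arrays and 8.87, 8.78 and 8.85 in the ASC arrays. Hey1 and Hey2, further transcriptional repressors that Notch induces, fell by 2.55 and 1.58, and the 1 rise was Hes6, by 1.11, which is known to oppose Hes1. The RBPJ word GTGGGAA was in 6.14% of all promoter windows and in 3 of the 12 of the effectors. Notch3 and Heyl are expressed in pericytes too, and pericyte markers fell in the same arrays. Their part was not tested.

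Genes that cells switch on within minutes of a stimulus were high in QSCs and lower in ASCs. Cells of both groups were freed from muscle with enzymes and sorted before their RNA was taken, so the values are those of isolated cells. Of 15 AP-1 and ATF factors 12 fell and none rose (80%, against 12.6% of all genes), with a median of -2.25. Fos read 13.39, 13.46 and 13.42 in the QSC arrays and 10.45, 10.39 and 10.44 in the ASC arrays. Atf3 read 13.04, 12.98 and 13.11 in the QSC arrays and 9.79, 9.83 and 9.996 in the ASC arrays. Cebpd read 11.03, 11.19 and 11.02 in the QSC arrays and 6.80, 7.11 and 6.44 in the ASC arrays. No ASC array of these genes reached a QSC array. Cebpd fell the furthest of the list, by 4.29 ± 0.12 (SE, adjusted p = 4.33e-21), and Batf (0.001) and Fosl1 (-0.22) were not called. Of 35 other immediate early genes 24 fell and 3 rose. Nr4a3 fell by 3.59, Nr4a1 by 3.52 and Egr1 by 2.93. Klf5, Rgs1 and Klf10 rose by 1.01, 0.94 and 0.72, and Klf10 missed the fold at 0.54 after quantile normalization. Of 14 heat shock genes 10 fell and 2 rose. Hspb1, a small heat shock protein, read 13.46, 13.39 and 13.42 in the QSC arrays and 9.95, 10.004 and 10.002 in the ASC arrays. Bag3 fell by 3.02, Dnajb1 by 2.78 and Hspa1a, which shares sequence with Hspa1b, by 2.67, while the constitutive Hspa8 (-0.16) was not called. The phosphatases of the Dusp family, which switch off MAP kinases, did not move as 1 group, with 6 of 24 higher and 3 lower. Dusp1 fell by 2.19 and Dusp9 rose by 2.03.

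The CArG box, bound by serum response factor, was in 1.41% of all promoter windows, in 5 of 29 windows of the immediate early list and in 8 of 50 windows of sarcomere genes. It is shown in 2 immediate early promoters, 160 bases before the start, with the box in capitals. Both were chosen among called genes of the list that hold the box in these bases.
Egr2 (chr10:67537406-67537565, plus strand): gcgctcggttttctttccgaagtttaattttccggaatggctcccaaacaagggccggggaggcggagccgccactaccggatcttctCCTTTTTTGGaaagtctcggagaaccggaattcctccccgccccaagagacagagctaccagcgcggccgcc
Zfp36 (chr7:28379229-28379388, minus strand): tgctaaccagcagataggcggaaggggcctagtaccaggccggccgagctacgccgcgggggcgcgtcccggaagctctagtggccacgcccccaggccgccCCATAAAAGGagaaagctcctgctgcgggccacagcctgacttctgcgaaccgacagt
Egr2 fell by 3.33 and Zfp36, which destabilizes mRNAs, by 2.57.

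The circadian clock and FoxO genes were lower as well. Of 18 clock genes 15 fell and none rose (83.3%). Rora, a nuclear receptor that activates Bmal1, read 11.00, 11.02 and 11.10 in the QSC arrays and 7.81, 7.96 and 7.90 in the ASC arrays. Dbp, an output of the clock, fell by 2.16, Per1 by 2.15, Arntl, which encodes Bmal1, by 1.64 and Nr1d1, its repressor, by 1.55, so that activators and repressors fell together. Clock (-0.35) and Csnk1e (0.03) were not called. The labels used here give no hour of day for the collections. Of 17 FoxO factors and targets 10 fell and none rose. Txnip, which limits glucose uptake, read 12.58, 12.62 and 12.63 in the QSC arrays and 9.26, 9.32 and 9.42 in the ASC arrays. Foxo1 fell by 2.37, Foxo3 by 1.48 and Irs2 by 2.57, and Foxo4 stood at -0.21, not called.

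Growth factor signalling genes fell more often than they rose, with ligands, receptors and inhibitors alike. Of 40 FGF genes 10 fell and 1 rose. Fgfr1 read 12.40, 12.39 and 12.42 in the QSC arrays and 10.32, 10.39 and 10.45 in the ASC arrays, and Fgf2 fell by 1.52. Of 20 BMP and TGF-beta ligands 10 fell and 2 rose, with Bmp6 lower by 3.49, Bmp4 lower by 3.30 and the activin subunit Inhba higher by 1.66. Of 17 antagonists and binding proteins 8 fell and 2 rose, and of 24 receptors, Smads and Id targets 11 fell and none rose. Tgfbr3, the co-receptor betaglycan, fell by 3.63 and Id3 by 1.95. Of 15 genes of the IGF axis 10 fell and 2 rose. Igf1 read 9.77, 9.74 and 9.81 in the QSC arrays and 7.43, 7.54 and 7.56 in the ASC arrays. Of 27 cytokine receptors, Stats and Socs genes 15 fell and 2 rose, with the oncostatin M receptor Osmr lower by 2.42 and Stat3 by 2.25. Wnt ligands were the exception, with 1 of 19 higher, Wnt7b, and 1 lower, Wnt2b. Their median level was 6.8 in QSCs and 6.73 in ASCs, below the array medians of 7.26 to 7.39, so few calls are not read as stable expression. Wnt7b lost its call without ASC replicate 1 or QSC replicate 3 (lowest 0.52), and Wnt2b without ASC replicate 1 or 3 or QSC replicate 1 (-0.55 at the smallest) and under both other scalings. Of 42 Wnt receptors, modulators and targets 4 rose and 10 fell: Ror1 fell by 2.94 and Fzd4 by 2.32, and Sfrp2, a secreted Wnt inhibitor, rose by 2.03. Of 21 imprinted genes 10 fell and 1 rose, Peg10, by 1.35. Zim1 fell by 3.72 and Plagl1 by 1.72. Vascular cells express a number of these growth factors and receptors, and in the same arrays 13 of 14 endothelial and 11 of 13 pericyte markers fell. Their part was not tested.

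Myogenic regulators moved in both directions. Myod1 read 12.10, 12.04 and 12.11 in the QSC arrays and 11.92, 11.97 and 12.001 in the ASC arrays, so that the ASC arrays lay just below the QSC arrays and the log2 change of -0.12 was not called. Myog, the myogenin gene, read 7.89, 7.64 and 7.71 in the QSC arrays and 9.01, 9.13 and 9.18 in the ASC arrays, and rose by 1.36 ± 0.07 (SE, adjusted p = 6.14e-16). Myf6, of mature fibers, was not called (-0.40). Of 37 myogenic and upstream transcription factors 5 rose and 13 fell. Msc, which binds E-boxes as a repressor, fell by 2.79, Pax3 by 1.501 and Mef2c by 0.96, and Tead4 rose by 1.25. Of 25 genes of fusion and migration 5 rose and 7 fell. Myof, the membrane fusion protein myoferlin, read 8.21, 8.36 and 8.31 in the QSC arrays and 11.58, 11.64 and 11.63 in the ASC arrays. Cdh2, N-cadherin, read 7.88, 7.91 and 7.92 in the QSC arrays and 11.08, 11.24 and 11.22 in the ASC arrays. Mymk, myomaker, rose by 1.395 and Cdon fell by 1.79.

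Sarcomere genes rose more often than they fell. Of 51 such genes 17 rose and 6 fell. Ttn, titin, read 6.89, 6.82 and 6.83 in the QSC arrays and 10.89, 10.93 and 11.01 in the ASC arrays, and rose by 4.10 ± 0.05 (SE, adjusted p = 7.67e-28). Tnnt2, the troponin T of heart and embryonic muscle, rose by 1.87 and the embryonic myosin Myh3 by 1.80. Mybpc1, myosin binding protein C of slow muscle, read 10.06, 10.08 and 10.20 in the QSC arrays and 7.86, 7.75 and 7.97 in the ASC arrays, and fell by 2.25. Cryab fell by 2.16 and Nebl by 2.03. The E-box word CAGCTG, a form that MyoD and myogenin bind, was in 16.3% of all promoter windows and in 18 of 50 windows of sarcomere genes. It stood before a gene that rose and before one that fell, as the 160 bases before each start show, with the word in capitals. Both were chosen among called sarcomere genes that hold the word in these bases.
Tnnt2 (chr1:135836174-135836333, plus strand): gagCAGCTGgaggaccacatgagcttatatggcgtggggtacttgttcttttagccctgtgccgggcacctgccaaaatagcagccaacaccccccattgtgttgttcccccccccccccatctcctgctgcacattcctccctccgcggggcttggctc
Mybpc1 (chr10:88605153-88605312, minus strand): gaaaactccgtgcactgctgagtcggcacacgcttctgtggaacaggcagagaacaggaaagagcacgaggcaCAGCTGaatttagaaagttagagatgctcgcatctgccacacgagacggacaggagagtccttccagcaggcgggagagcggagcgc
Of 30 genes of excitation, calcium stores and the synapse 8 rose and 5 fell. Chrnd, the delta subunit of the acetylcholine receptor, read 7.30, 7.26 and 7.33 in the QSC arrays and 10.42, 10.66 and 10.64 in the ASC arrays. The fetal subunit Chrng rose by 2.73. Casq2, the calcium store protein calsequestrin 2, read 9.45, 9.46 and 9.55 in the QSC arrays and 6.60, 6.51 and 6.72 in the ASC arrays, and Musk fell by 1.39. The log2 change of Casq2 was -2.88 here, -0.54 in YFP cells, where it was not called, and -1.07 in old cells. Its QSC means in these sets were 9.49, 7.67 and 7.48. Of 18 genes of the dystrophin complex and its linkers 8 fell and 4 rose. Dmd, dystrophin, read 11.14, 11.23 and 11.19 in the QSC arrays and 6.56, 6.44 and 6.55 in the ASC arrays, and fell by 4.67 ± 0.06 (SE, adjusted p = 1.05e-27). Sgca, of the same complex, fell by 2.23, and nestin, Nes, rose by 2.31.

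Basement membrane genes fell more often than they rose, and genes of the provisional matrix moved in both directions. Of 18 laminin and basement membrane genes 11 fell and 2 rose, with Lama3 lower by 3.34 and Lama2 by 2.20. Of 44 collagens 11 fell and 3 rose. Col15a1, a basement membrane collagen, read 11.00, 11.07 and 11.07 in the QSC arrays and 7.78, 7.85 and 7.72 in the ASC arrays, and Col4a1 fell by 2.38. Endothelium and pericytes make these proteins as well, and their markers fell in the same arrays, whose part was not tested. In the list of fibronectin, tenascin and crosslinking genes 10 of 23 rose and 8 fell. Has2, hyaluronan synthase, read 7.24, 7.49 and 7.71 in the QSC arrays and 10.77, 10.76 and 10.85 in the ASC arrays. Vcan, versican, which binds hyaluronan, read 7.41, 7.54 and 7.60 in the QSC arrays and 10.65, 10.70 and 10.71 in the ASC arrays. Tnxb, tenascin X, read 11.15, 11.31 and 11.31 in the QSC arrays and 6.90, 7.01 and 6.98 in the ASC arrays. Has2 and Vcan were higher in all ASC arrays and Tnxb lower in all. Tenascin C, Tnc, rose by 2.16. Of 44 metalloproteases and inhibitors 4 rose and 14 fell, with Timp1 higher by 2.72 and Timp3 lower by 3.10. Of 25 integrins 6 rose and 4 fell, with Itga3 at 2.40 and Itgb6 at 2.62 above Itga1 at -2.77 and Itga8 at -2.95, and the rises of the leukocyte integrins Itgam (1.202) and Itgb2 (0.996) moved with the macrophage markers. Of 63 guidance genes 6 rose and 16 fell. Plxna1 rose by 2.45 and its relative Plxna2 fell by 2.11. Of 36 chemokines 6 rose and 10 fell. Ccl3, which macrophages make, rose by 3.19, and Ccl19 fell by 3.23. Of 21 interferon response genes 10 fell and none rose, with Irf1 lower by 2.12. Of 16 complement genes 5 rose, all of them receptors or C1q chains (C3ar1 at 2.46), and 7 fell (Serping1 at -3.60), and the part of macrophages in the rises was not tested.

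The 60-hr arrays were then set beside those of 36 hr and 84 hr. These comparisons use the same 60-hr arrays, and 60 hr and 36 hr share the QSC arrays as reference, so their values are given side by side only. Against 36 hr 1249 genes (6.26%) were higher at 60 hr and 1692 (8.49%) lower. From 60 hr to 84 hr 642 (3.22%) rose and 146 (0.732%) fell. Over the 4 times of young VCAM cells 23.7% of all genes had their highest mean at 60 hr. Replication and mitosis genes had theirs there in larger shares: 27 of 27 origin genes, 34 of 35 of the kinesin list, 28 of 31 fork genes and 36 of 39 ribosome biogenesis genes. These are ranks of means, and fewer were called. From 36 to 60 hr 14 origin, 9 fork and 1 ribosome biogenesis genes were called higher, and 1 fork gene lower. From 60 to 84 hr 6 origin, 2 kinesin, 3 fork and 1 ribosome biogenesis genes were called lower, and none higher. The mean of the kinesin list was 6.71 in QSCs, 9.19 at 36 hr, 10.11 at 60 hr and 9.84 at 84 hr, and 31 of its 35 members rose from 36 to 60 hr. Bub1 averaged 10.04 at 36 hr and 10.73 at 84 hr. Of citric acid cycle and ATP synthase genes 16 of 23 and 11 of 15 had their highest mean at 84 hr, as did 3243 of all 19939 genes. No member of either list was called between 60 and 84 hr. Sarcomere genes rose mainly after 60 hr. Their mean was 7.38, 7.28, 7.68 and 8.78 over the 4 times, and 30 of 51 rose from 60 to 84 hr. Myog averaged 7.75, 8.27, 9.11 and 11.60, and Cdkn1c 10.15 at 60 hr and 12.19 at 84 hr. The AP-1 list had its lowest mean at 60 hr, 9.24, after 11.28 in QSCs and 10.05 at 36 hr, and stood at 9.43 at 84 hr. Macrophage markers were at 6.36 in QSCs, 9.67 at 36 hr, 7.83 at 60 hr and 8.71 at 84 hr, so that 60 hr held their lowest level of the 3 injured times, with 25 of 25 lower than at 36 hr and 18 called higher at 84 hr. Genes of the wound matrix fell beside them from 36 to 60 hr, 19 of 23 of the fibronectin and tenascin list. Tnc averaged 12.13 at 36 hr and 10.84 at 60 hr.

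**Figure D4:**
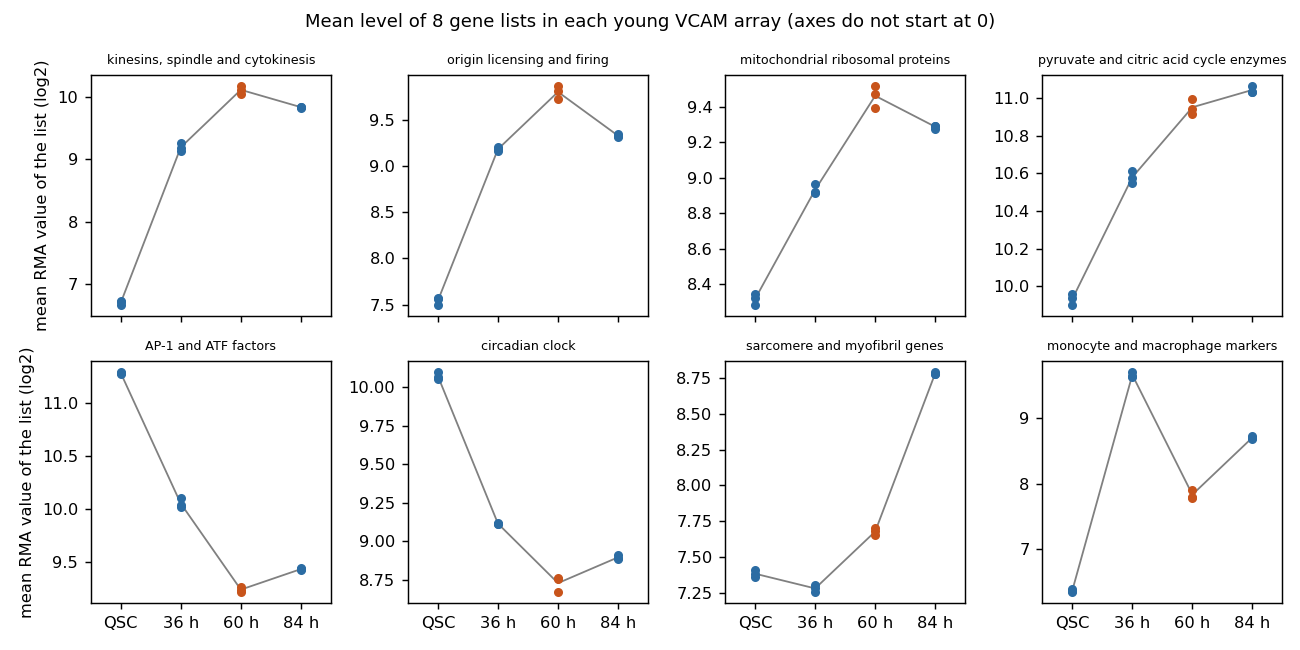
Mean RMA value (log2) of 8 gene lists in each of the 12 VCAM arrays of young mice, at QSC, 36 hr, 60 hr (orange) and 84 hr, with a line through the group means. Axes do not start at 0 and differ between panels. The kinesin list peaked at 60 hr at a mean of 10.11, sarcomere genes rose mainly at 84 hr, to 8.78, and macrophage markers were highest at 36 hr, at 9.67.

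The same comparison in YFP-sorted cells, which shares no array with it, was set beside it. In YFP cells 3433 genes (17.2%) rose and 2556 (12.8%) fell. Of the genes that rose in VCAM cells 2827 rose in YFP cells too, which is 85.4% of the VCAM and 82.3% of the YFP list. Of those that fell 2008 fell in both, 79.7% and 78.6%. Only 8 genes were called in opposite directions. Across the 19939 genes the log2 changes correlated at 0.937, a description over genes that are not independent and that share the array design. The difference between the 2 changes was called for 995 genes (4.99%), 441 with the higher change in VCAM cells and 554 with the lower. It was largest for Akr1c14, a hydroxysteroid dehydrogenase. Akr1c14 read 5.51, 5.39 and 5.40 in the QSC arrays and 4.86, 4.70 and 4.55 in the ASC arrays, and fell by 0.73, and in YFP cells it fell by 4.34 from a QSC mean of 9.54. The collagen crosslinking enzyme Lox rose by 1.05 in VCAM cells and fell by 1.72 in YFP cells. Of 7 tenocyte markers 4 had the higher change in VCAM cells and none the lower, with list means of 8.97 in QSCs and 9.33 in ASCs of VCAM cells and of 8.15 and 7.77 in YFP cells. Pericyte markers differed too. Of the 13 members 7 fell further in VCAM cells, in which the list's mean was at most 10.04 in a QSC array against a mean of 9.19 in YFP QSCs, while at 60 hr it was at most 8.02 against 8.05. Rgs5 fell by 4.27 and by 2.32. The macrophage markers rose further in YFP cells, for 12 of 25 members, with list means of 7.83 and 8.51 at 60 hr. Of the kinesin list 34 of 35 rose with either sort, of origin genes 26 and 25, and 12 and 13 of the 15 AP-1 and ATF factors fell.

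In old mice 3556 genes (17.8%) rose and 2334 (11.7%) fell at 60 hr, and 1788 (8.97%) changed to a different degree than in young mice. Of these, 430 had the higher change in young cells and 1358 the lower. The rises were shared at 2772 genes, 83.7% of the young and 78.0% of the old list, and the falls at 1803, 71.6% and 77.2%. The changes correlated at 0.896 over all genes. Of the 94 lists the macrophage markers had the largest share of members with a called difference: 25 of 25 rose in old cells with a median of 2.96, the change was lower in young cells for 23, and their mean at 60 hr was 7.83 in young and 9.56 in old arrays. Of the 6 genes with the largest differences 5 were genes of myeloid cells. Ccr1, a chemokine receptor of myeloid cells, rose by 0.81 in young and 3.56 in old cells, and Il1b, the cytokine interleukin 1 beta, by 1.02 and 3.56. Of the 21 satellite cell markers 9 had the lower change in young cells and none the higher. Abca8a fell by 5.06 in young and by 2.53 in old cells, and Igf1 by 2.26 against a change of -0.01 that was not called. Cholesterol synthesis genes, of which 2 of 20 rose in young cells, rose at 14 in old cells. Their mean level was 9.47 and 9.53 in young QSCs and ASCs and 8.98 and 9.68 in old ones, and the response was lower in young cells for 12. Sarcomere genes rose at 17 of 51 in young and 7 in old cells, with the difference called at 10 higher and 3 lower in young cells. Titin rose by 4.10 and 2.63. Ribosome biogenesis genes rose further in young cells at 9 of 39. Replication and mitosis genes rose alike in number, 26 of 27 origin genes and 34 of 35 of the kinesin list in either age. In all 3 sets of mice together 2575 genes rose and 1660 fell.

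**Figure D5:**
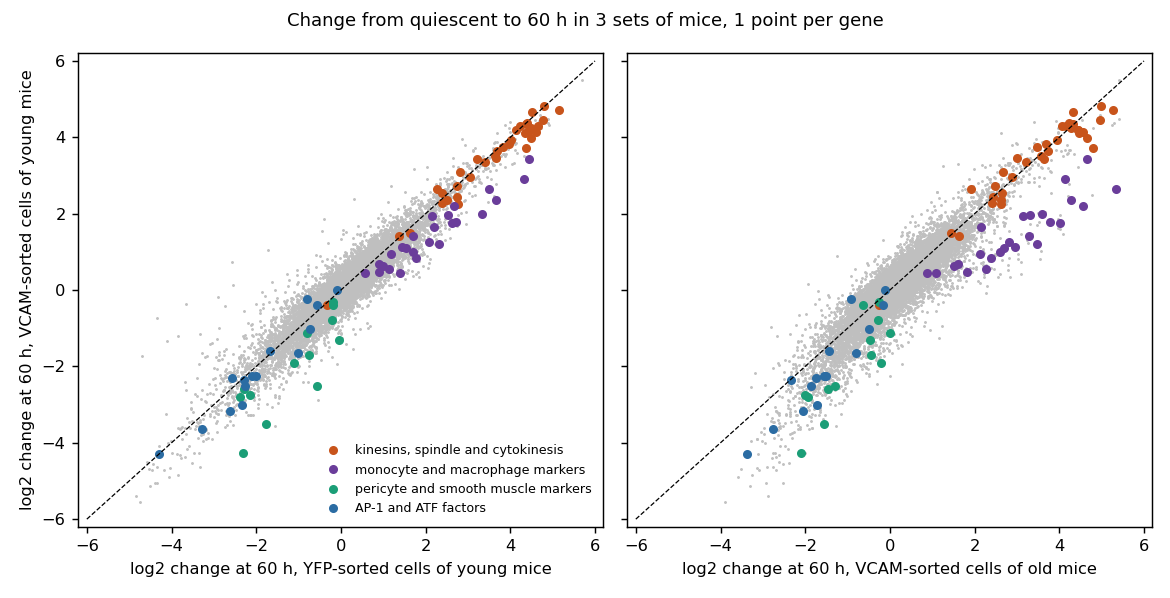
Log2 change from QSCs to 60-hr ASCs in VCAM-sorted cells of young mice (vertical axis) against that in YFP-sorted cells of young mice (left) and in VCAM-sorted cells of old mice (right), 1 point per gene, with 4 lists in colour and a dashed line of equal change. Kinesin and cytokinesis genes lie along the line in both panels. Macrophage markers lie to the right of it, with median changes of 1.25 in young VCAM, 2.09 in YFP and 2.96 in old cells, and pericyte markers lie below it.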

How the data were processed

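The authors scanned 1-colour Affymetrix Mouse Gene 1.0 ST arrays and made the deposited log2 values with Affymetrix Expression Console and RMA, a method of background correction, quantile normalization and probe summary. Software versions were not given in the sources used here. Deposited values were not scaled again, and dim genes were kept. An array gives no read depth, so the number of arrays, 3 in each of 10 groups, limits the precision.

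Probe sets were joined to symbols through the platform annotation. Of 35556, 21789 had 1 symbol, 1621 had several and 12146 had none, and those without a single symbol were left out of the tests. The reference annotation held the Entrez ID of 21698 tested probe sets. Where several probe sets named 1 gene (998 genes), the one with the highest mean of all arrays was read. In 1 gene the probe sets were called in opposite directions.

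All 30 arrays entered 1 linear model (lmFit and eBayes of limma 3.58.1, R 4.3.3), with a mean per group and 20 residual degrees of freedom. Its adjusted p-values are Benjamini-Hochberg values over all 21789 probe sets, two-sided, and every SE is of this fit. By the adjusted p alone 11909 genes (59.7%) passed, 5864 higher and 6045 lower, and no gene past the fold failed the p, so the fold of 1.5 sets the counts. Folds of 1.5 to 1.6 were seen in 746 genes and of 1.4 to 1.5 in 944. Differences of responses are interaction terms of the same model. The fit was tested on simulated data.

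The comparison, the 94 gene lists and the tests were chosen with earlier results of these data known, so no list is independent support. Listed genes with no match among the genes tested were left out of the counts. Genes named are the 10 largest called rises and falls without overlap of arrays, from each list up to 4 genes of largest change and, where most moved 1 way, up to 2 of smallest, genes the study names, and up to 6 genes with the largest difference of response. Other members of lists were named after their values were seen: Ptprc, Pecam1, Pttg1, Ccnd3, Rbl2, Myc, Mycn, Suz12, Eed, Pfkfb2, Pfkfb3, Megf10, Met, Jag2, Hes6, Egr1, Klf5, Klf10, Rgs1, Zfp36, Arntl, Nr1d1, Peg10, Tead4, Mef2c, Mymk, Tnnt2, Myh3, Musk, Itgam, Itgb2, Mcm5, Mcm6, Kif15, Kif2c, Tet3, Dnmt3a and Dnmt3b. Promoter sequences are those of RefSeq on GRCm38.p6. The counts were recomputed with other scalings, without dim genes, with other folds, with means of probe sets, with fewer arrays in the fit, with a variance trend, with a replicate block and without each array.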

Additional observations from a re-analysis of the deposited data

Results flagged for a closer look

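The change at 60 hr differed between VCAM-sorted and YFP-sorted cells for 995 genes by the interaction term of the limma fit, and 653 of them were also called in VCAM cells. VCAM minus YFP, the difference of the log2 changes was 3.60 for Akr1c14, 3.31 for the membrane protein gene Tmem45a, 3.30 for F630111L10Rik, 2.95 for the nucleotide receptor P2ry14, 2.77 for Lox and 2.76 for Mpzl2. Sorts, mouse strains and tamoxifen treatment cannot be told apart in this difference.

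The change differed between young and old VCAM cells for 1788 genes, of which 1186 were called in young cells. Young minus old, the difference was -2.74 for Ccr1, -2.69 for Clec4e, -2.66 for Clec4n, -2.62 for Ccl6, -2.54 for Il1b and -2.52 for Abca8a. The first 5 are genes of myeloid cells, and the mean of the macrophage markers at 60 hr was 7.83 in young and 9.56 in old arrays.

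Probe sets outside the tests were called at 60 hr in smaller shares than tested genes, of which 16.6% rose and 12.6% fell. Of 1621 probe sets with several symbols 383 (23.6%) were called, 213 higher and 170 lower, and of 12146 with no symbol 3151 (25.9%), 1540 higher and 1611 lower.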

How the results depend on the processing

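The fold threshold set the counts. Without it 5864 genes rose and 6045 fell at 60 hr against QSCs, and with a fold of at least 2 these were 1820 and 1397. For the other comparisons the calls without a fold threshold and with a fold of at least 2 were 12315 and 3254 in YFP cells, 13794 and 3098 in old cells, 4899 and 195 for the difference between VCAM and YFP responses, 6248 and 492 for that between young and old, 9433 and 1078 for 60 against 36 hr, and 5633 and 213 for 84 against 60 hr. Leaving out each array gave 3221 to 3416 rises and 2502 to 2564 falls, 5961 to 6062 calls in YFP cells, 5833 to 6025 in old cells, 993 to 1073 and 1748 to 1892 for the 2 differences, 2810 to 3132 against 36 hr and 777 to 817 for 84 hr. Centring arrays on their medians gave 3732 rises and 2171 falls (63.2% of calls rose, against 56.8%) and quantile normalization over the genes 2999 and 2747 (52.2%). With a filter on dim genes (14919 genes) 3271 rose and 2416 fell, and with the mean of probe sets 3289 and 2508. No called gene among the 464 chosen by rule changed direction under any of these alternatives, with 14 not run under the filter on dim genes. A fold of at least 2 took away the call of 35, quantile normalization of 8, centring of 4, leaving out 1 array of 3 (Wnt7b, Wnt2b and S100a9) and the mean of probe sets of 1. Calls were gained by 61 without a fold threshold, by 3 with centring, by 3 with quantile normalization and by 5 when 1 array was left out. Medians of the 94 lists moved by more than the spread between arrays for 93 with centring (by 0.09 to 0.1, with 6 changes of sign), for 71 with quantile normalization (by -0.19 to 0.11, with 4), for 22 with the filter on dim genes (by -0.8 to 0.22, with 2), for 9 with the mean of probe sets and in 139 of 564 values without 1 array (by -0.1 to 0.15), so a list median near 0, such as that of cytosolic ribosomal proteins, has no settled sign.

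The labels do not say whether replicate numbers pair the arrays. Once group means were taken off, 27 of 135 same-numbered pairs had a correlation over 0.1. The pairs of this comparison gave 0.3, 0.023 and 0.21. Pairs of different numbers were not set beside them, so these values do not decide whether arrays were paired. With the replicate block, as with a variance trend and with only the compared arrays, 3312 genes rose and 2519 fell. Every group holds the same replicate numbers, so these settings leave each log2 change as it was. The fold set the counts, since no gene past it failed the adjusted p. The counts could therefore hardly differ, and their equality does not decide whether arrays were paired or whether these choices of model matter.

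Of the genes that rose 163 had a QSC mean under 6, and of those that fell 221 had a 60-hr mean under 6. Signal over background was not among the values used here.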

Other observations

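Some further lists moved little or in both directions. Of 21 amino acid transporters 7 rose and 6 fell. Slc7a8, which exchanges neutral amino acids, fell by 3.15 and the glutamine transporter Slc1a5 rose by 1.54. Of 14 genes of fatty acid synthesis 6 rose and 2 fell, with malic enzyme Me1 higher by 2.32 and the desaturase Scd1 lower with a log2 change of -1.46. Of 44 ABC transporters 4 rose and 9 fell, and of 16 tubulins and stathmins 5 rose and 2 fell, with stathmin, Stmn1, higher by 2.83 and the neuronal microtubule protein Map2 lower with a change of -2.42. Of 10 syndecans and glypicans 2 rose and 3 fell, and of 23 cadherins 2 rose and 4 fell.

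Of 14 antigen presentation genes 3 fell and none rose, with the class I gene H2-Q4, which shares sequence with its relatives, at -2.69. Of 7 tenocyte markers 3 rose, Thbs4 by 1.33, Comp by 0.92 and the transcription factor Scx by 0.91. In YFP cells the log2 change of Thbs4 was -0.0003, not called, and Comp fell by 0.59. Of 5 Schwann cell markers 2 fell, Pmp22 with a change of -1.90 and Mbp with -1.04.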
